A study of Mus musculus with 6 samples.

Results

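The 25 biotin-labelled DNA probes used for chromatin isolation by RNA purification (ChIRP) of *LncRNA-HIT* were examined one by one. All 25 of the 25 probes in the deposited probe list were used, and each is 20 bases long. They were grouped by the heading under which they are listed, which gives 13 odd and 12 even probes, and by number, which gives probes 1 to 11 nearer to *Hoxa13* and probes 12 to 25 nearer to *Hoxa11*. The list and its headings fix the members without a measured value, but the grouping by number was made with earlier results of these data known.

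ChIRP-seq was performed on chromatin from the distal part of limb buds of Swiss Webster mouse embryos at E 11.0, with about 2000 limb buds for each assay, and on chromatin of a murine glial cell line that is described as not expressing the lncRNA. Each chromatin was hybridized with the odd set and, separately, with the even set, and each had an input library, so that there were 6 libraries with 1 library per group. The labels give the glial samples as from embryonic brain of Swiss Webster mice at E 11.0, whereas the protocol text gives glial cells of E15.5, and neither stage was used. The transcript is called Hotchon in the labels. The authors kept, along the genome, only the lower signal of both sets and called peaks over the input signal. The paper does not describe these steps separately for the glial cells. There was 1 list per tissue. Without replicates, tissues and probe sets could not be compared by a test over samples, and how many reads support a peak is not known.

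Long noncoding RNAs are transcripts without a protein product, and many of them act in the nucleus on chromatin. ChIRP retrieves the chromatin bound by such an RNA through short antisense probes that are tiled along it. Probes are split into separate pools that have no probe in common so that DNA recovered by a single pool, through hybridization to something other than the RNA, can be removed when only the signal common to both pools is kept. The HoxA cluster, in which *LncRNA-HIT* lies, encodes homeodomain transcription factors, and *Hoxa11* and *Hoxa13* pattern the middle and the distal segments of the limb.

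All 4 pairs of probes that had a word of 8 or more bases in common, on either strand, joined an odd to an even probe. Since the sets are of nearly equal size, about as many of all possible pairs join different sets as the same set. With only 4 pairs, no preference can be read from this. The pairs are shown because such a word is present in both pools. Sequences run 5′ to 3′, and capitals mark the shared words.
Probe 21 (odd): agaTTGCACACCATTatggg
Probe 22 (even): caAATGGTGTGCAAgtatca
Probe 7 (odd): CAAGGTCAaggtttaaggcc
Probe 8 (even): gtCAAGGTCACAaattgtct
Probe 17 (odd): attAAGGTCACAgaccacct
Probe 2 (even): ctgatacTCAACAACtggtt
Probe 23 (odd): gttttgatagtgGTTGTTGA

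Probes 21 and 22 are complementary to each other over 12 bases, TTGCACACCATT, and their sites on the transcript start 25 bp apart. Probes 8 and 17 share the 9 bases AAGGTCACA in the same orientation, and probes 7 and 8 share the 8 bases CAAGGTCA. Probes 2 and 23 are complementary over the 8 bases TCAACAAC. The pairs differ in distance on the transcript, since the sites of probes 7 and 8 start 28 bp apart and those of probes 2 and 23 start 989 bp apart.

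A further group of probes is shown because 12-base words of theirs recurred in peaks far from the locus. Capitals mark the 12-base word that was found in the largest number of limb peaks for each of them, and the probes shown are those whose word was in at least 7. Probe 21 and the even probes 4, 6 and 8 had words in 5 or 6 limb peaks and are not included.
Probe 1 (odd): catttGCCACAGGGAGTctg
Probe 3 (odd): aaatacgaCAGTCTAGGCAT
Probe 5 (odd): accaaaaACCTGTCCTTTCa
Probe 7 (odd): CAAGGTCAAGGTttaaggcc
Probe 9 (odd): gacCAATTCATGAGCtgtca
Probe 16 (even): gtgaggGCTGGGAGTGAAtg

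In the mouse genome build mm9, the probe sites spanned 1095 bp, chr6:52206273-52207367, between *Hoxa13* and *Hoxa11*. The sites covered 500 bases, or 45.7% of the span. All of them had the sequence of the plus strand, so that the complementary transcript runs along the minus strand like *Hoxa11* and *Hoxa13*, and probe 1 lies towards its 5′ end. None of the probe sites overlapped a gene of the annotation of this build. The nearest was *Hoxa13*, 325 bp from the span, and *Hoxa11* was 10059 bp away on the other side.

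The tiling was dense at one end and open at the other. The 24 gaps between neighbouring sites had a median of 6 bp, 11 of them were of 5 bp or less and 3 were over 50 bp. The widest gap, 223 bp, lay between probes 11 and 12 and separated the 2 groups by number. Probes 1 to 11 occupied 259 bp, chr6:52207109-52207367, of which they covered 84.9%. Probes 12 to 25 occupied 613 bp, chr6:52206273-52206885, of which they covered 45.7%. Within a set, the median gap was 37.5 bp for the odd and 60 bp for the even probes, and both sets crossed the widest gap, with gaps of 253 bp and 249 bp.

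The 2 sets did not differ in composition by more than the spread among their probes. GC content was 44.2% ± 5.34 (SD, n = 13 probes) in the odd and 43.8% ± 7.72 (SD, n = 12 probes) in the even set. The computed melting temperature of the probe on its RNA was 46.8 °C ± 3.01 (SD, n = 13 probes) and 46 °C ± 2.53 (SD, n = 12 probes). Probes 1 to 11 and 12 to 25 were as close, with a GC content of 44.5% ± 5.22 (SD, n = 11 probes) and 43.6% ± 7.45 (SD, n = 14 probes).

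Single probes stood apart within these ranges. Probe 16 had the highest GC content, 60%, and probes 18, 20 and 23 the lowest, 35%. Probe 1 had the highest melting temperature, 53.3 °C, and probe 15 the lowest, 42.1 °C. Low complexity was limited, since the longest run of 1 base was 5 bases, in probes 5, 18 and 24, and the number of distinct 3-base words per probe ran from 12, in probes 7 and 23, to 18. Probe 19 holds the longest self-complementary word, the 10 bases ACTCTAGAGT. The dinucleotide CG, which is rare in mammalian DNA, was present in 9 probes, of which 3 were among probes 1 to 11 and 6 among probes 12 to 25.

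At the *LncRNA-HIT* locus the lists differed in which probe sites they covered. The strength of a peak is given here as −log10(p), from the score assigned by the peak caller. The limb peak, chr6:52206123-52207602, had a −log10(p) of 310.0 and contained all 25 sites. The glial peak, chr6:52206196-52207203, had a −log10(p) of 59.6 and contained 18 sites, 9 of the odd and 9 of the even set. The sites outside the glial peak were those of probes 1 to 7. By number, the glial peak contained 4 of the 11 sites of probes 1 to 11 and all 14 sites of probes 12 to 25. The count of 18 was the same when any overlap of a site with the peak was accepted.

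Outside the locus, identical sites were almost absent from the genome. All probes except probe 1 had 1 exact site in mm9. Probe 1 had a second, chr17:4538315-4538334 on the minus strand, outside genes and 139.7 kb from the nearest annotated one, a U6 snRNA gene. It lay 403.3 kb from the nearest limb peak and 199.1 kb from the nearest glial peak. A further 10 sites matched in 19 of 20 bases. These 11 sites belonged to 7 probes, and none of them was in a peak of either list. The nearest limb peak to any of them was 106.9 kb away and the nearest glial peak 37.4 kb away.

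Weaker matches were frequent. A match was counted, without gaps and on either strand, where at least 15 of the 20 bases of a probe were identical, whether adjacent or not. By this rule a probe had a median of 24341 sites in the genome, from 8133 for probe 14 to 62156 for probe 16. The 9 probes with a CG had a median of 6.57 sites per Mb and the 16 probes without one had 10.6. The sets were alike, with a median of 8.52 sites per Mb for the odd and 9.62 for the even probes. Because this density varied between probes, the number of matches in peaks was set beside the number that the genome density of the same probes gives in as many bases.

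The limb list held 2879 peaks outside the locus, which covered 1.27 Mb, and the glial list 2918 peaks, which covered 1.3 Mb. Their median widths were 408.0 and 407.0 bp, and their GC contents were 43.9% and 42.6%, against 41.8% in the genome. Of all pairs of a probe and a limb peak, 0.796% had a match, and of all pairs of a probe and a glial peak, 0.532%. A match to at least 1 probe was found in 516 limb peaks, 17.9% (95% Wilson interval 16.6 to 19.4%), and in 362 glial peaks, 12.4% (11.3 to 13.7%). When the genome was divided into windows of 408 bp, 9.84% of the windows had one. The intervals here and below cover counting error only. Some peaks were wider than the windows and offered more bases to match, which holds for every share of windows given below.

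The limb peaks contained 600 sites, against 341.7 at the genome density, or 1.76-fold (95% exact Poisson interval 1.62 to 1.9). The glial peaks contained 396 against 347.5, or 1.14-fold (1.03 to 1.26). Odd and even probes had much the same ratio in the limb, 1.74-fold (1.56 to 1.95) and 1.77-fold (1.57 to 1.98). The groups by number did not. Probes 1 to 11 had 2.21-fold (1.97 to 2.46) and probes 12 to 25 had 1.41-fold (1.25 to 1.59) the genome density in limb peaks. In glial peaks the order was the opposite, with overlapping intervals, at 1.08-fold (0.916 to 1.25) and 1.19-fold (1.04 to 1.35). All 11 of probes 1 to 11 were above the genome density in the limb list, as were 7 of the 14 probes from 12 to 25.

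The probes themselves varied over a wider range than the groups. Probe 16 matched the most limb peaks, 75, or 2.61% of them, and probe 14 the fewest, 2, or 0.0695%. Relative to the genome density the highest was probe 9, whose 53 limb sites were 5.01-fold (3.75 to 6.56), and the lowest was probe 14 at 0.494-fold (0.0598 to 1.78). In the glial list no probe reached 2-fold. The highest there was the same probe 14, whose 8 sites were 1.94-fold (0.838 to 3.83), and the lowest was probe 17 at 0.644-fold (0.321 to 1.15). Probe 9 had 16 glial sites, or 1.49-fold (0.85 to 2.42), an interval that did not meet that of its limb sites. A larger share of the limb than of the glial peaks was matched by 19 of the 25 probes, which included all 11 of probes 1 to 11 and 8 of the 14 others.

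Of the probes that share words, by 15 of 20 bases only probe 7 had an interval wholly above the genome density in limb peaks, at 2.98-fold (2.02 to 4.23). Probe 8 was at 1.53-fold (0.944 to 2.33), probe 21 at 1.48-fold (0.83 to 2.44) and probe 22 at 1.32-fold (0.754 to 2.14), and for each of these the interval reached 1. The same was true of probe 17 at 0.714-fold (0.369 to 1.25), probe 2 at 1.11-fold (0.576 to 1.95) and probe 23 at 0.782-fold (0.49 to 1.18).

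The excess in the limb list grew with the closeness of the match. For sites that matched in exactly 14 bases it was 1.07-fold (1.03 to 1.11), for 15 bases 1.59-fold (1.45 to 1.73), and for 16 bases 3.07-fold (2.49 to 3.74). Sites of 17 matching bases followed at 4.44-fold (2.22 to 7.95), with 11 sites in limb peaks. At 18 bases, 4 of the 286 sites in the genome were in limb peaks, or 28.1-fold (7.65 to 71.9). The glial list had a lower ratio at every one of these steps, with intervals that overlapped those of the limb except at 15 and 16 bases. It was 1.05-fold (1 to 1.09) at 14 bases, 1.11-fold (1 to 1.24) at 15 bases, 1.32-fold (0.958 to 1.78) at 16 bases and 1.59-fold (0.433 to 4.07) at 17 bases, and 1 site of 18 matching bases was in a glial peak.

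The second rule asked for uninterrupted identity and was met by fewer sites in the genome. A run of at least 12 identical bases was found in 227 limb peaks, 7.88% (6.96 to 8.93%), in 80 glial peaks, 2.74% (2.21 to 3.4%), and in 1.17% of the genome windows. Of all pairs of a probe and a peak, 0.331% in the limb and 0.111% in the glial list had such a run. The 249 sites in limb peaks were 6.43-fold the genome density (5.66 to 7.28) and the 91 in glial peaks 2.31-fold (1.86 to 2.84). Both rules selected partly different peaks, since 102 limb peaks met both, which were 19.8% of those by the first rule and 44.9% of those by the second. By length, runs of exactly 12 bases were 5.19-fold (4.41 to 6.06), runs of 13 bases 10.8-fold (8.47 to 13.7), runs of 14 bases 8.08-fold (4.18 to 14.1) and runs of 15 bases or more 21.4-fold (9.79 to 40.6) in the limb list. In the glial list, runs of exactly 12 bases were 2.24-fold (1.74 to 2.84), runs of 13 bases 2.4-fold (1.37 to 3.9) and runs of 14 bases, with 6 sites, 3.97-fold (1.46 to 8.65). The interval at 14 bases overlapped that of the limb list, and those at 12 and 13 bases did not. No glial run was of 15 bases or more (0 to 8.63-fold), where the genome density gives 0.428.

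By runs, the odd and even sets were no longer alike in the limb list. Odd probes had 8.37-fold (7.09 to 9.82) and even probes 4.74-fold (3.85 to 5.77) the genome density. Probes 1 to 11 had 10.5-fold (8.98 to 12.3) and probes 12 to 25 had 3.7-fold (2.96 to 4.57). In the glial list the corresponding intervals overlapped, at 2.18-fold and 2.42-fold for the sets and 2.48-fold and 2.2-fold for the groups by number.

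A few probes accounted for much of this. Probe 16 had a run in 40 limb peaks and probe 9 in 39, and after them came probe 1 with 30, probe 5 with 22 and probe 21 with 15. Probes 10 and 15, both with a CG and both with few such runs in the genome, had none. Without probes 9 and 16, which were left out after their values were seen, the limb ratio was 5.11-fold (4.37 to 5.94) and the glial ratio 1.65-fold (1.25 to 2.15). Relative to the genome density the highest was probe 12, with 31.1-fold (11.4 to 67.7) from only 6 sites in 3 peaks. Probe 9 stood at 18-fold (12.8 to 24.6) and probe 16 at 12.2-fold (8.73 to 16.6). Among the probes that share words, this rule gave more intervals above the genome density than 15 of 20 bases did. Probe 21 stood at 16.9-fold (9.44 to 27.8), probe 7 at 10.7-fold (6.24 to 17.1), probe 8 at 5.57-fold (2.67 to 10.2), probe 2 at 4.88-fold (1.79 to 10.6) and probe 22 at 4.05-fold (1.32 to 9.46). The value of probe 22 is not separate from that of probe 21, since 4 of its 5 peaks were matched by both through their complementary word. Probe 23 at 1.9-fold (0.23 to 6.87) and probe 17 at 0.528-fold (0.0134 to 2.94) had few sites and intervals that reached 1. In the glial list probe 16 again matched the most peaks, 14, and probe 9 followed with 11.

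The words in capitals in the second group of sequences were those found in the most limb peaks, so that their limb counts are high by choice and are given as a description. The word CAATTCATGAGC, bases 4 to 15 of probe 9, was present in 15 limb peaks, 2 glial peaks and 0.0133% of the genome windows. The glial word chosen in the same way for this probe, AATTCATGAGCT, starts 1 base later and was found at run sites in 5 glial peaks. The word GCTGGGAGTGAA, bases 7 to 18 of probe 16, was present in 18 limb peaks, 2 glial peaks and 0.0105% of the windows, and the glial choice, GGCTGGGAGTGA, was found at run sites in 5 glial peaks. Of the others, CAAGGTCAAGGT of probe 7, the bases CAAGGT in direct repeat, and ACCTGTCCTTTC of probe 5 were each in 10 limb peaks. GCCACAGGGAGT of probe 1 was in 8 and CAGTCTAGGCAT of probe 3 in 7. Each word was searched on both strands, and peaks that hold 1 of the overlapping words of a probe can hold another.

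A run of 12 bases always includes the middle of a 20-base probe, and only its ends are free to vary. For probe 7, 15 of the 17 run sites in limb peaks, 88.2%, included its first base, against 38.3% of its run sites in the genome. For probe 3, 7 of 9, 77.8%, included its last base, against 27.9% in the genome. Probe 16 had its last base in 37.5% of its limb run sites and 9.98% of those in the genome. Probe 9 was the reverse, with its last base in 5.13% of its limb run sites and 29.3% of those in the genome. The glial list departed from the genome in the same directions. There, probe 16 had its last base in 8 of 24 run sites, 33.3%, and probe 9 in 1 of 11, 9.09%. Probe 7 had its first base in 2 of 2 glial run sites and probe 3 its last base in 1 of 2. These probes were chosen after their values were seen, and the differences were not tested. Several sites of probe 7 lay in the same peak, and the 24 glial run sites of probe 16 lay in 14 peaks. Sites in the same peak are not separate observations.

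The words shared between probes of different sets were searched in the same way. CAAGGTCA, of probes 7 and 8, was in 126 limb peaks, 4.38% (3.69 to 5.19%), in 95 glial peaks, 3.26% (2.67 to 3.96%), and in 2.24% of the genome windows. AAGGTCACA, of probes 8 and 17, was in 0.799% (0.533 to 1.2%) of limb and 0.857% (0.581 to 1.26%) of glial peaks, against 0.675% of windows. TCAACAAC, of probes 2 and 23, was close to its share of the windows, 1.29%, in both lists. TTGCACACCATT, of probes 21 and 22, was in 4 limb peaks, 0.139% (0.054 to 0.357%), in no glial peak, which allows up to 0.131%, and in 0.00453% of windows.

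Matches lay over the whole width of the peaks and in both orientations. By 15 of 20 bases, 56.7% (52.7 to 60.6%) of the limb sites and 55.1% (50.1 to 59.9%) of the glial sites lay nearer to the centre of their peak than to its edges. By runs of 12 bases it was 53.4% (47.2 to 59.5%) and 49.5% (39.4 to 59.5%). Only sites that lay whole inside a peak were counted, which by itself gives the centre a somewhat larger share when sites are spread evenly. The probe had the sequence of the plus strand at 49.8% (45.8 to 53.8%) of the limb sites by the first rule and at 49% (42.8 to 55.2%) by the second. Whether a match had any part in a peak being listed was not tested.

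Some of the close matches in peaks are shown with the probe base by base. Each line is the genomic site read in the direction of the probe, and capitals mark the bases that are identical to it. They are examples from the peaks that held a site of at least 18 identical bases or a run of at least 14, of which there were 24 in the limb and 7 in the glial list. The lines are not a ranking, and some sites left out match more closely than some of those shown.
Probe 16, nearest gene AC141876.1, chr6:9847568-9847587: GaGgGGGCTGGGAGTGAATG
Probe 16, nearest gene *Cd209g*, chr8:4138727-4138746: GaGAGGGCTGGGAGTGAAat
Probe 16, nearest gene *Ly86*, chr13:37627045-37627064: GTGAGGGCTaGGAGTGAATt
Probe 9, in *Adam12*, chr7:141271858-141271877: GgCCAAcTCATGAGCTGTCA
Probe 9, in *Cdh18*, chr15:22664227-22664246: aAaCAATTCATGAGCTGTtA
Probe 4, nearest gene *Rbfox1*, chr16:6419101-6419120: CACATGCAcACTTAAaAGCA
Probe 21, in *Fgf13*, chrX:56353478-56353497: AGATTGCACACCATTcTcat
Probe 17, nearest gene *Ust* (glial list), chr10:8259393-8259412: ATTAAGGTCAaAGtCCACCT

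Among the 24 limb peaks with such a close match, probe 16 accounted for 7 and probe 9 for 5, and the others were spread over 9 probes. Odd probes gave 11 and even probes 13 of them. None overlapped a glial peak and none lay in an exon, whereas 3.82% and 10.2% of all 2879 limb peaks outside the locus did, so that few of 24 would do so at the shares of the list. An intron held 10 of them, against 38.3% of the list, and 10 had a p-value within the threshold of the study, 5.9e-57, against 26.8% of the list. The gene named for a peak is the one it overlaps or, failing that, the nearest, and a name says nothing of regulation.

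For probe 16, the site 274.3 kb downstream of the miRNA gene AC141876.1 matched in 18 bases with a run of 16, in a limb peak with a −log10(p) of 12.7. The site 0.989 kb downstream of *Cd209g*, which encodes a C-type lectin, matched in 17 bases with a run of 16, in a peak of 91.8. The peak of the site 116.0 kb downstream of *Ly86*, whose product binds a Toll-like receptor homologue on B cells, stood at 69. Runs of 14 bases were found in an intron of the cAMP phosphodiesterase gene *Pde7b*, in an intron of Gm16223 and 1.97 kb downstream of the decapping gene *Dcp1b*, and a run of 15 bases lay 6.08 kb downstream of *N4bp1*. The probe was thus matched closely in peaks from −log10(p) 11.2, at *Dcp1b*, to 92.3, at *Pde7b*.

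For probe 9, the site in an intron of *Adam12*, a metalloprotease gene, matched in 18 bases, in a limb peak with a −log10(p) of 68.3. The site in an intron of the cadherin gene *Cdh18* matched in 17 bases with a run of 15, in a peak of 21.6. Runs of 14 bases were found in an intron of *Galnt13*, which encodes an enzyme that starts O-glycosylation, 0.138 kb upstream of a SNORD26 gene, and 14 kb upstream of *Mkx*, which encodes a homeodomain factor of tendon. This last peak had a −log10(p) of 77.3.

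The remaining limb peaks of this kind belonged to other probes. Probe 4 matched in 18 bases 390.0 kb upstream of *Rbfox1*, a splicing regulator, in a peak of −log10(p) 58.7, and with a run of 15 bases 43 kb upstream of *Ky*, a muscle peptidase gene. Probe 21 had a run of 15 bases in an intron of *Fgf13*, in a peak of 84.3, and a run of 14 bases 21.1 kb downstream of 1600021P15Rik, and probe 22 had a run of 14 bases 152.1 kb downstream of *Trim29*. Probe 8 had runs of 14 bases in introns of *Epb4.1*, which encodes a protein of the membrane skeleton, and of the sialyltransferase gene *St6galnac3*. Single sites fell to probe 5, 18 kb upstream of AC114668.1, to probe 11 in an intron of *Leprot*, probe 12 in an intron of the meiotic gene *Hormad2*, probe 13, 92 kb downstream of AL808020.1, and probe 25, 24.7 kb downstream of Gm14619.

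In the glial list, the closest match was that of probe 17, 18 bases in a peak 20.5 kb upstream of *Ust*, a sulfotransferase gene, with a −log10(p) of 60.7. The other 6 were runs of 14 bases. Probe 25 had them in an intron of *Mas1*, which encodes a G protein-coupled receptor, and 84.9 kb downstream of *Bbs9*, a gene of the ciliary BBSome complex. Probe 6 had one in an intron of *Sec13*, a coat protein gene, probe 16 in an intron of *Smyd4*, probe 4 at 229.4 kb upstream of *Tmprss15*, which encodes enteropeptidase, and probe 9 at 58.5 kb downstream of a U6 snRNA gene.

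Peaks matched by a probe of each set were few. By 15 of 20 bases there were 24 in the limb list, 0.834% (0.561 to 1.24%), and 13 in the glial list, 0.446% (0.261 to 0.761%), against 0.269% of the genome windows. The windows were of 408 bp, whereas these peaks included some of 4825 bp in the limb and 4882 bp in the glial list. A wider peak offers more bases to match, and the part of width in these shares was not tested. Most matched peaks held a single probe, 468 of the 516 in the limb and 337 of the 362 in the glial list. By runs of 12 bases, 8 limb peaks, 0.278% (0.141 to 0.547%), were matched by both sets, and 4 of these were matched by probes 21 and 22 through their complementary word. No glial peak was, which allows a share of up to 0.131%.

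Of the limb peaks matched by both sets at 15 of 20 bases, the 5 with the highest scores included a broad peak over mitochondrial DNA. That peak is named for *mt-Nd4*, which encodes a subunit of respiratory complex I, but it extends well beyond that gene. It was 4825 bp wide with a −log10(p) of 310.0. The odd probe 23 and the even probes 16 and 20 matched it, the last of them outside *mt-Nd4*. A glial peak of 4882 bp lay over the same mitochondrial sites, also at 310.0. This value was shared by 9 limb and 10 glial peaks, the limb peak at the locus among them, and peaks that share it cannot be ranked by strength. Adjacent limb peaks of 2628 and 2631 bp lay in *Sfi1*, a centrosomal gene, with a −log10(p) of 123.5 and 252.4. The first overlapped a glial peak and the second did not. The first was matched by probes 7, 12 and 21 and the second by probes 1, 2 and 13. The narrower ones lay 197.7 kb upstream of *Slc39a10*, a zinc transporter gene, with matches of probes 6 and 23, and 32 kb downstream of Gm11077, with matches of probes 4, 11 and 16, and neither overlapped a glial peak. In the glial list the others of the top 5 lay 31.7 kb downstream of *Iyd*, which encodes an iodotyrosine deiodinase, 69.7 kb downstream of 1700091E21Rik, in *Sec13* and, on chromosome Y, 227.0 kb downstream of Gm3395. Of these, the peak on chromosome Y overlapped a limb peak.

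Matched peaks had a higher median score than the rest of their list. Limb peaks with a run of 12 bases had a median −log10(p) of 46.5, against 33.9 for the rest, and 37.4% (31.4 to 43.9%) against 25.9% (24.3 to 27.6%) were within the study threshold. In the glial list the medians were 41.9 and 32.3, and the shares within the threshold 31.2% (22.2 to 42.1%) and 23.7% (22.2 to 25.3%). Among the 100 limb peaks of highest score, 14% (8.53 to 22.1%) held such a run, and among those ranked 101 to 500, 12% (9.17 to 15.6%). The share was 7.6% (5.59 to 10.3%) at ranks 501 to 1000, 9% (7.38 to 10.9%) at ranks 1001 to 2000 and 4.21% (3.07 to 5.75%) in the remainder, so that by this rule it did not fall at every step. Among glial peaks it was 6% (2.78 to 12.5%) in the first 100 and 3.75% (2.29 to 6.09%) at ranks 101 to 500, and then 2.4%, 2.3% and 2.61% in the following groups of ranks. By 15 of 20 bases the share fell at every step in both lists. Over the same groups of ranks it was 27%, 23%, 18.4%, 17.1% and 15.2% in the limb list. In the glial list it was 21%, 14.5%, 14.4%, 11.8% and 10.1%. The first 100 limb peaks were also wider, with 92.4 kb searched, against 195.9 kb for the following 400. Of the 227 limb peaks with a run, 6 overlapped a glial peak, 2.64%, and of the limb peaks without one, 3.92% did. In the glial list the order was the opposite. Of the 80 glial peaks with a run, 5 overlapped a limb peak, 6.25%, against 3.45% of those without one. These differences were not tested.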

How the data were processed

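The 25 probe sequences and the limb and glial peak lists of the ChIRP-seq libraries were used. Per the labels, reads were aligned to mm9 with Bowtie 0.12.9. The authors kept uniquely mapped reads, scaled each library to its total, took the minimum of the odd and even tracks along the genome and ran MACS against input, the version of which is not given in the sources used here. The deposited score of a peak is 10 times its −log10(p), and it was divided by 10. The minimum of both tracks lowers the signal of sequence recovered by 1 set only. The depth behind a peak is unknown.

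Probes were placed on mm9 by exact match. The whole genome and every peak outside the probe span were scanned on both strands, without gaps, for at least 15 of 20 identical bases or a run of at least 12. Genome density is the number of sites outside the span over all known bases. Shares carry 95% Wilson and ratios 95% exact Poisson intervals. No test was made, since each tissue has 1 list and neither peaks nor probes are replicates. Melting temperatures used nearest-neighbour RNA:DNA values with 50 mM sodium and 25 nM of each strand. The scan was tested on simulated data and recovered all 100 planted sites. Peaks were named where they held a site of at least 18 identical bases or a run of at least 14, or were among the 5 highest scores matched by both sets. Probes were named for the most or the fewest of a measure, together with those that share words, probes 2, 7, 8, 17, 21, 22 and 23. Probes that matched a named peak were given with it. Probes 4 and 6, for their recurring words, and probes 1, 3, 5 and 9 beyond this were chosen after their values were seen. The members, the groups and the match rules were chosen with earlier results of these data known. Gene models were those of GENCODE for mm9. Signal tracks were not used here. Python 3.11.15, numpy 2.4.6, scipy 1.17.1, numba 0.67.0 and biopython 1.88 were used.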

Additional observations from a re-analysis of the deposited data

How the results depend on the processing

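The share of peaks matched by any probe and by both sets, 17.9% and 0.834% in the limb and 12.4% and 0.446% in the glial list, depended on the match rule. With 14 of 20 bases these shares were 61.8% and 15.9% in the limb and 58.6% and 14.2% in the glial list. With 16 of 20 bases they were 3.86% and 0% in the limb and 1.64% and 0% in the glial list, and with a run of 12 bases 7.88% and 0.278%, and 2.74% and 0%. Runs of 12 bases without probes 9 and 16, chosen after seeing the data, gave 5.28% and 0.243%, and 1.92% and 0%. Among peaks at the study threshold they were 21.3% and 1.55%, and 15.6% and 1%, and in the middle 200 bp of each peak 9.66% and 0.278%, and 5.83% and 0.103%. Fewer bases were searched in that last case. The limb share by any probe was above the glial share under each of these. Leaving out peaks shared with the other list, or probes 21 and 22, kept all 4 shares within their intervals. Ratios over the genome density were also computed, after seeing the data, from windows whose GC content lay between the quartiles of that of the peaks, and with 1 site for each probe and peak. By 15 of 20 bases they were then 1.75 and 1.68 in the limb and 1.15 and 1.12 in the glial list, and by runs of 12 bases 6.68 and 6.15, and 2.39 and 2.06. No paired analysis was possible because each group had 1 library and each tissue had 1 list. Repeated sequence was not masked. With 1 list per tissue, the tissue and the library cannot be told apart.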

Other observations

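The probes were also compared with the probe set that the study used for single-molecule RNA FISH of the same transcript. That set has 29 entries, 27 of them distinct, and 22 of the 25 ChIRP probes were identical to one of its probes. The 3 that were not are probes 12, 13 and 14, the first 3 on the *Hoxa11* side of the widest gap.

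Of the limb peaks with and without a run of 12 bases, 6.61% and 10.5% were in exons, 37.9% and 38.3% in introns and 55.5% and 51.2% outside genes. For glial peaks these shares were 8.75% and 8.35% in exons, 36.2% and 36.8% in introns and 55% and 54.8% outside genes. By 15 of 20 bases, 45% of the matched and 36.8% of the unmatched limb peaks were in introns, and in the glial list 34% and 37.2%. The differences were not tested.

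Across the 25 probes, the limb ratio over the genome density by runs of 12 bases had a Spearman's rho of 0.72 with the glial ratio, and by 15 of 20 bases 0.20. With the computed melting temperature the limb ratio had a rho of 0.33 by runs and 0.54 by 15 of 20 bases. The points share libraries and, in part, base composition, and these values are a description only.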
